A study of Homo sapiens with 17 samples.

Results

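The HOX genes encode homeodomain transcription factors that lie in 4 clusters in the human genome. The genes described here are the 38 HOX genes on a fixed list, 10 at HOXA, 10 at HOXB, 9 at HOXC and 9 at HOXD, chosen by gene name from 19974 protein-coding genes on chromosomes 1 to 22 and X. Another HOX gene is not on the list and was not analysed here. Each cluster interval used below runs from the first to the last listed gene, so a flank can hold part of a cluster. The data were lists of ChIP-seq peaks from A549, an established human lung carcinoma cell line grown in Ham's F-12K medium with fetal bovine serum. Unmodified cells, labelled WT, gave 2 libraries each for the forkhead factor FOXA1 and for the histone marks H3K9me3 and H3K27me3. A derived A549 line carried A-Fos, a dominant-negative Fos that disables AP-1 dimers, integrated with piggyBac. It gave 2 libraries each for FOXA1 and for the AP-1 subunit FOSL2, both without doxycycline and after 48 h in 1 µg/mL doxycycline, which induced A-Fos. The labels do not say whether the A-Fos line was 1 clone or a pool, and doxycycline in cells without A-Fos was not analysed here. The labels call the libraries biological replicates of 1 cell line and say no more of their origin, so p-values measure the spread between these libraries alone.

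In an embryo, HOX genes are switched on in the order of their position along each cluster, from group 1 to group 13, and so specify position along the body axis. Polycomb repressive complex 2 writes H3K27me3 and keeps HOX genes silent where they are not used, while trithorax proteins keep the chosen genes active. H3K9me3 marks another form of silent chromatin, found mostly at repeats and at zinc finger gene families. FOXA1 is a pioneer factor of lung, liver and other endodermal epithelia, able to bind its sites in compacted chromatin.

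The 3 promoter sequences and 4 mature microRNAs carry the patterns described below, and all are from RefSeq on GRCh38.p14. Promoter entries were matched for 20 of the 38 genes and gave 26 distinct windows of 250 bases before to 50 after a transcription start. The first sequence, chr12:54016638-54016887 on the plus strand, is the 250 bases before the start shared by HOXC4 and HOXC5. It is shown because WT FOXA1 peaks covered 91.6% of it in library 1 and 100% in library 2. Capitals mark its only match to the forkhead motif TGTTTAC, here on the minus strand, at position 56 from the 5′ end.

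HOXC4 and HOXC5: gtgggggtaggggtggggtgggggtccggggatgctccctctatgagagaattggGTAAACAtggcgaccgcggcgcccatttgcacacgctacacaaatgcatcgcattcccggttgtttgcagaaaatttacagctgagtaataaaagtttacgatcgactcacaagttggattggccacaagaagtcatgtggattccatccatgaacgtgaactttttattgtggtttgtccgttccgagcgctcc

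The next 2 are neighbours on chromosome 2 that show a gap within, and the end of, the block of H3K27me3 around EVX2 and HOXD13. Further H3K27me3 peaks of the HOXD cluster lay beyond that block, up to HOXD1. The 250 bases before the HOXD13 start, chr2:176092471-176092720 on the plus strand, lay under no H3K27me3 peak in either library although peaks stood on both sides. Capitals mark its 21 CpG dinucleotides. The 250 bases before the HOXD12 start, chr2:176099545-176099794 on the plus strand, were covered in library 2 alone, over 62.8% of their length. Capitals there mark the 157 bases under that peak, which ended inside the window.

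HOXD13: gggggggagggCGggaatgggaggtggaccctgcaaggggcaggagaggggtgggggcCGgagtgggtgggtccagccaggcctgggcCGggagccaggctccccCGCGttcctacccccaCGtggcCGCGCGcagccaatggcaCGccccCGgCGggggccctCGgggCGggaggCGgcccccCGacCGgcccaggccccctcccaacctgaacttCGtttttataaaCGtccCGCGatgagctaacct

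HOXD12: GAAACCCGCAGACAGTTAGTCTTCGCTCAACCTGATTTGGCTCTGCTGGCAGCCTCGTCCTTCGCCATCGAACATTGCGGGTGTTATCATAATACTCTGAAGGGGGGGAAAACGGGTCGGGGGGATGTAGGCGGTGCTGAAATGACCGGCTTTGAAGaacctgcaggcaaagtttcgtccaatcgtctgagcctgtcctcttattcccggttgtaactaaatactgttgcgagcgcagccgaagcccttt

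The HOX clusters also hold microRNA genes that are known to target HOX transcripts. Capitals mark the seed, bases 2 to 8. The copies in HOXA, HOXB and HOXC of the miR-196 family share the seed AGGUAGU, and miR-10a of HOXB has another.

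MIR196A2 in HOXC, hsa-miR-196a-5p: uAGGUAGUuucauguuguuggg
MIR196A1 in HOXB, hsa-miR-196a-5p: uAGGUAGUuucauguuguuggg
MIR196B in HOXA, hsa-miR-196b-5p: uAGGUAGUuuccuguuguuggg
MIR10A in HOXB, hsa-miR-10a-5p: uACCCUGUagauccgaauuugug

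The lists differed greatly in length, which bears on every count below. The H3K27me3 lists held 190938 and 228427 peaks, the H3K9me3 lists 305084 and 201740, and the WT FOXA1 lists 49448 and 80318. The FOXA1 lists of the A-Fos line held 7633 and 13247 peaks without doxycycline and 11112 and 15065 with it. The FOSL2 lists held 45586 and 14842 without doxycycline and 1854 and 5274 with it. Peak lists carry no read counts, so the depth of each library is unknown, and a stretch without a peak is a stretch without a call and not a measured zero. As a check of the H3K27me3 lists, none of 8 housekeeping genes was touched by a peak. Of 6 marker genes of other tissues 2 were covered over at least 50% of the interval in both libraries, 3 were touched in both and 1 was free. The muscle gene MYOD1 had the highest mean, with 84.2% and 84.1% of its interval covered, and PTPRC, a marker of blood cells, was the free one. Of 9 lung and airway epithelial genes 3 were covered, 2 were touched in 1 library and 4 were free. The surfactant gene SFTPC was covered over 83.6% and 85.5% and NKX2-1, the lung lineage regulator, over 57.6% and 78.1%, while the surfactant gene SFTPB and EPCAM, a marker of epithelium, were free of peaks.

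HOX genes were free of H3K27me3 peaks at a share near that of all genes. The intervals of 24 of the 38, or 63.2%, held no peak in either library, and 63.6% of all protein-coding genes held none. A gene was called covered when at least 50% of its RefSeq interval lay under peaks in each of both libraries. HOXD13 (chr2:176087487-176095944), which patterns the digits and the genital tubercle, was the only one of the 38 genes called, against 5.04% of all protein-coding genes. Peaks covered 60.0% of it in library 1 and 75.0% in library 2, with a highest fold enrichment over background of 5.29 and 6.61. Peaks overlapped the interval in both libraries at 8 HOX genes, against 30.2% of all genes, and in 1 library alone at 6, against 6.20%. HOX intervals are short, with a median of 3.79 kb against 24.2 kb for all genes, so shares of intervals touched at all are not like for like. The median cover was 0% both for the HOX genes and for all genes.

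**Figure D1:**
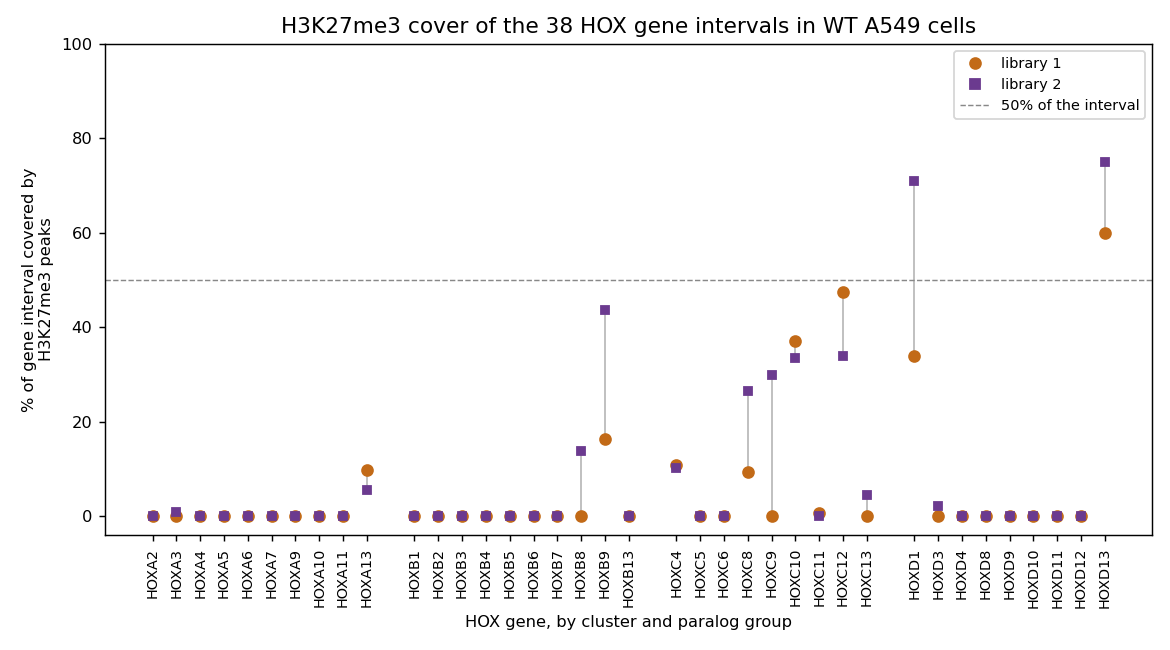
Percent of each of the 38 HOX gene intervals under H3K27me3 peaks in WT A549 cells (vertical axis), by cluster and paralog group (horizontal axis). Circles are library 1, squares are library 2, grey lines join the libraries of 1 gene, and the dashed line is the 50% threshold; HOXD13 alone lies above it in both libraries, and 24 genes lie at 0 in both.

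Among the group 1 to 4 genes, which act in the hindbrain and neck region, 4 of 11 were touched in at least 1 library and 2 of them in both. The 4 are 36.4% of the 11, and 36.4% of all protein-coding genes were touched in at least 1 library. HOXD1, at chr2:176188668-176190907, was covered over 33.9% in library 1 and 70.9% in library 2. Its libraries fell on either side of the threshold, and its mean of 52.4% ± 26.2 (SD, n = 2) was the closest to that of HOXD13, 67.5% ± 10.6 (SD, n = 2), with ranges that overlapped. HOXC4 was covered over 10.9% and 10.1%, all of it in the part of its long interval that lies beyond HOXC5 and HOXC6. HOXA3 had 0% and 0.814%, and HOXD3 had 0% and 2.10%, so library 2 alone touched them. HOXB1 had no peak in its interval, but peaks covered 21.8% and 30.6% of the 1 kb either side of its 5′ end. HOXA2, HOXA4, HOXB2, HOXB3, HOXB4 and HOXD4 had no peak in the interval or within 1 kb of its ends in either library.

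The group 5 to 7 genes, which pattern the lower neck and thorax, had no H3K27me3 peak in their intervals. All 8 of them, HOXA5, HOXA6, HOXA7, HOXB5, HOXB6, HOXB7, HOXC5 and HOXC6, had a cover of 0% in both libraries, as had 63.6% of all genes. Of these 8, only HOXA7 had any peak within 1 kb of an end, over 15.2% of the window at its 3′ end in library 2. The 2 genes of group 2, HOXA2 and HOXB2, were free at interval and ends. A cover of 0% was thus not particular to groups 5 to 7, and the contrast depends on where the groups are divided. HOXA3 spans HOXA4 to HOXA6, HOXB3 spans HOXB4, HOXC4 to HOXC6 share 1 start and HOXD3 overlaps HOXD4, so these 11 genes are not independent measurements.

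Group 8 to 13 genes, which pattern the trunk, limbs and hindgut, held 6 genes touched in both libraries among 19, or 31.6%, near the 30.2% of all genes. HOXC12 was covered over 47.4% and 33.8%, HOXC10 over 37.1% and 33.6%, and HOXB9 over 16.3% and 43.7%. Of these, HOXC10 differed least between libraries and HOXB9 most. HOXC8 was covered over 9.33% and 26.5%, and HOXA13, needed for the autopod and the hindgut, over 9.74% and 5.46%. The order from HOXC12 to HOXB9 does not exceed the spread between libraries, since the 3 ranges overlap. Library 2 alone touched HOXC9, over 29.8%, HOXB8, over 13.7%, and HOXC13, over 4.39%. Library 1 alone touched HOXC11, over 0.708%. HOXA9, HOXA10, HOXA11, HOXB13, HOXD8, HOXD9, HOXD10, HOXD11 and HOXD12 were at 0% in both.

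Gene ends were also examined, because promoters lie there. An end here is the end of the RefSeq interval over all annotated transcripts, which can lie far from the start site of a printed promoter. For HOXD13 these points are 5.23 kb apart. The window around the 5′ end of its interval was covered over 0% and 100%, and its printed promoter over 0% in both libraries. The long intervals of HOXA3, HOXB3 and HOXC4 hold more than 1 transcript as well, so distances to their 5′ ends carry the same limit. Within 1 kb of either end, 11 HOX genes had a peak in both libraries, against 23.9% of all genes. At 8 of them it was the 5′ end: HOXB1, HOXB8, HOXC8, HOXC11, HOXC13, HOXD1, HOXD11 and HOXD12. At HOXC11, whose interval was almost free, peaks covered 51.6% and 42.5% of the window around the 5′ end. At HOXB8 the same window was covered over 16.7% and 70.2%. In all, 18 HOX genes had no H3K27me3 peak in the interval or at either end in either library, 6 at HOXA, 6 at HOXB, 2 at HOXC and 4 at HOXD. The same count was not made over all genes, so this number only describes the HOX genes.

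H3K9me3 was not called at any HOX gene. None of the 38 intervals was touched in either library, whereas 2.19% of all protein-coding genes were covered by H3K9me3, 39.0% were overlapped in both libraries, 10.2% in 1 library and 50.8% in neither. Because HOX intervals are short, with a median of 3.79 kb against 24.2 kb for all genes, the shares touched are not like for like. None of the 38 had an H3K9me3 peak in both libraries within 1 kb of an end, against 9.64% of all genes. Inside the 4 clusters the H3K9me3 lists placed peaks at HOXB alone, over 0.936% and 0.373% of that cluster. They lay in the long gap between HOXB9 and HOXB13, and the stretch common to both libraries was chr17:48694699-48695427, with its centre 29701 bp from HOXB13.

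Across the 4 clusters together, 520584 bp from the first to the last listed gene of each, H3K27me3 peaks covered 6.23% in library 1 and 8.89% in library 2. H3K9me3 peaks covered 0.360% and 0.143%. The difference of the means, 7.56% ± 1.88 against 0.252% ± 0.153 (SD, n = 2 each), was 7.31 percentage points, and the groups did not overlap. The exact permutation test over libraries gave p = 0.33 (two-sided), the smallest value that 2 against 2 libraries allow. Over the intervals of all protein-coding genes H3K27me3 covered 5.69% and 7.69%, close to its cover of the HOX clusters, while H3K9me3 covered 5.11% and 4.85%.

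The 4 clusters were not alike in H3K27me3. HOXA, chr7:27100354-27200091, was the barest, with 0.865% and 1.5% of its bases under peaks. HOXB, chr17:48528526-48728750, followed with 3.38% and 5.78%. HOXD, chr2:176087487-176190907, had 8.41% and 13.1%, and HOXC, chr12:53938831-54056030, had 13.8% and 16.8%. Both libraries gave this order, and the ranges of neighbouring clusters in it did not overlap, although the gap between HOXD and HOXC was less than the difference between libraries.

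**Figure D2:**
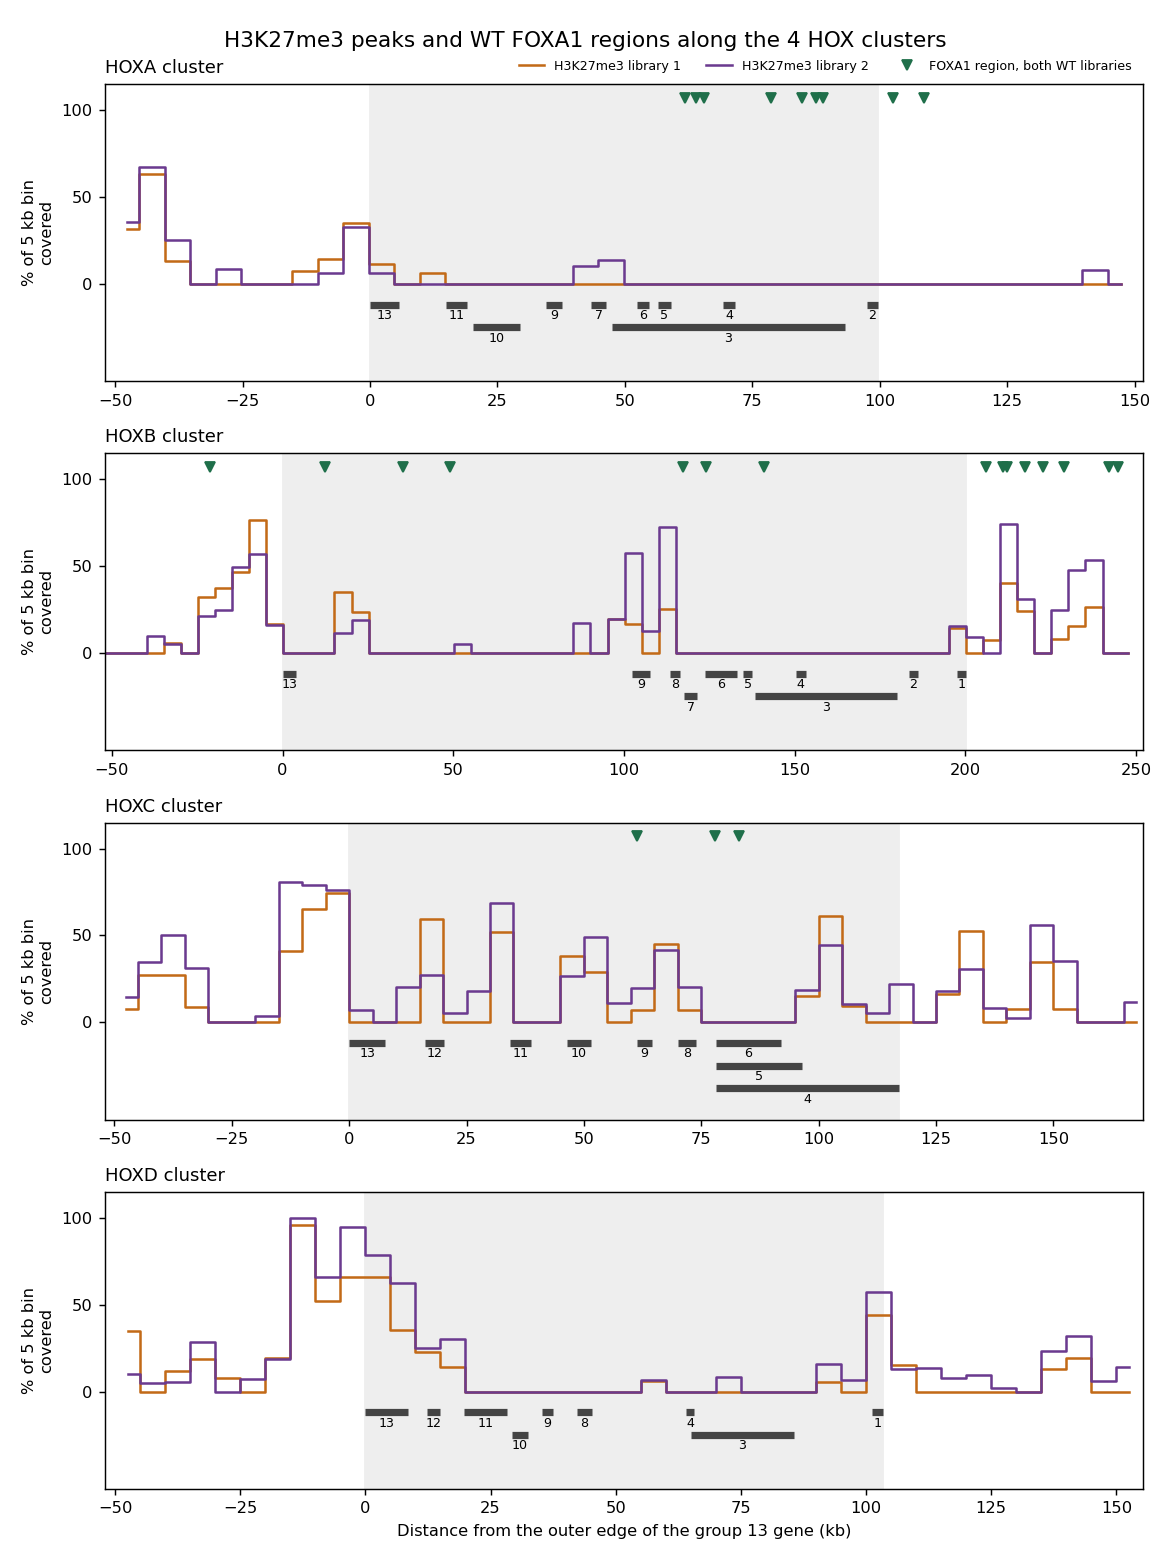
Percent of each 5 kb bin under H3K27me3 peaks (vertical axis) along the 4 HOX clusters in WT A549 cells, against distance from the outer edge of the group 13 gene (horizontal axis, kb). Orange and purple lines are libraries 1 and 2, grey shading is the cluster interval, bars below the axis are the listed genes with their paralog group numbers, and triangles are FOXA1 regions called in both WT libraries; the mark stands beyond the group 13 end of each cluster, and the FOXA1 regions of HOXA and HOXC lie mostly over bins at 0.

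Each cluster held a long stretch without an H3K27me3 call in either library. At HOXA 91.7 kb held HOXA2, HOXA4 to HOXA6 and nearly all of HOXA3, and reached past the edge of the interval at HOXA2. At HOXB 81.5 kb, all of it inside the interval, held HOXB2 to HOXB7 and the 3′ part of HOXB8. At HOXD 38.4 kb held HOXD8 to HOXD11, and at HOXC 26.4 kb held HOXC5 and HOXC6 with the start of HOXC4 and the 3′ end of HOXC8. These stretches contain the group 5 and 6 genes of all 3 clusters that have them.

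Peaks of H3K27me3 touching the cluster intervals numbered 34 in library 1 and 47 in library 2, with a median length of 796 and 785 bp, against 595 and 637 bp over the whole lists. The longest was 2249 bp in library 1, at HOXC, and 7718 bp in library 2, at the HOXD13 end of HOXD and partly outside the interval. The parts common to both libraries are shorter by construction. The stretches under peaks of both libraries numbered 1 at HOXA, 7 at HOXB, 11 at HOXC and 10 at HOXD, with a median length of 710 bp and a longest of 2042 bp. The longest of these was also the most enriched, chr12:54006461-54008502, between HOXC9 and HOXC8. The authors' fold enrichment there was 9.68 in library 1 and 6.85 in library 2, higher than 99.7% and 96.6% of the peaks of the same lists. At HOXA the only common stretch, chr7:27198467-27198779 in HOXA13, had a fold of 2.87 and 3.01, in the lower part of both lists.

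The mark was denser just outside the clusters than inside them. In the 8 flanks of 50 kb H3K27me3 covered 15.6% and 20.4%, against the 6.23% and 8.89% inside. The flank beyond the group 13 gene exceeded the cluster in both libraries at all 4 clusters, with 16.4% and 17.5% at HOXA, 21.5% and 18.4% at HOXB, 25.1% and 37.1% at HOXC, and 30.6% and 33.6% at HOXD. The opposite flank was covered over 0% and 0.780% at HOXA, 12.3% and 24.1% at HOXB, 11.9% and 17.3% at HOXC, and 6.77% and 14.1% at HOXD. It was thus the lower flank at HOXA, HOXC and HOXD in both libraries, and at HOXB in library 1 only. Against the cluster interval itself, the opposite flank was lower at HOXA in both libraries and at HOXC and HOXD in library 1. It was higher at HOXB in both libraries and at HOXC and HOXD in library 2.

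**Figure D3:**
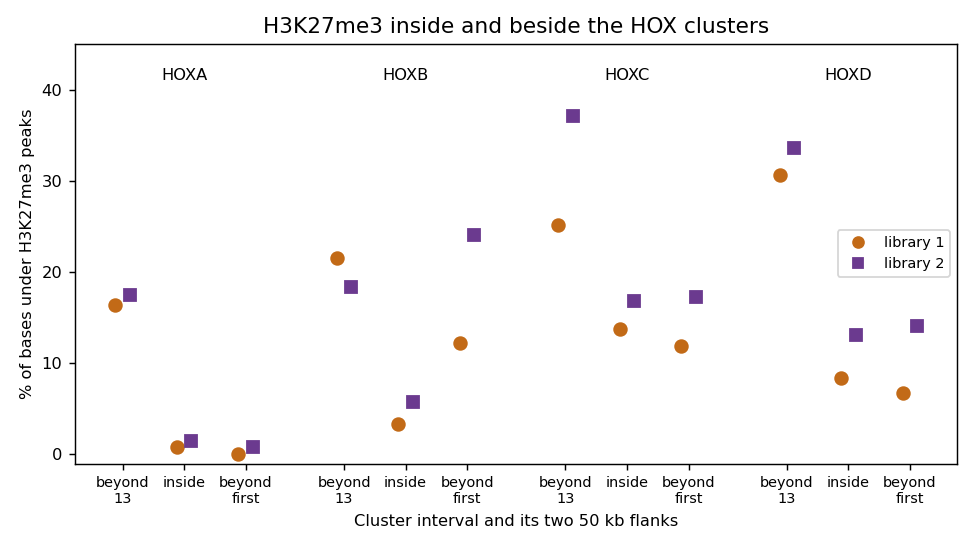
Percent of bases under H3K27me3 peaks (vertical axis) in each HOX cluster interval and in the 50 kb beyond its group 13 gene and beyond its first listed gene (horizontal axis). Circles are library 1 and squares library 2 of WT A549 cells; the flank beyond group 13 lies above the cluster interval in both libraries at all 4 clusters.

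The even-skipped homologs EVX1 and EVX2, homeobox genes beyond the group 13 ends of HOXA and HOXD, stood out in those flanks. EVX2 was covered over 56.9% and 69.8%, and EVX1 over 53.6% and 52.2%. Of 21 protein-coding genes listed in or near the clusters these 2 were called, 4 were touched in both libraries and 15 were free. With peaks up to 5 kb apart joined, the mark around EVX2 formed 1 block of 29.1 kb in library 1 and 35.6 kb in library 2, of which 61.5% and 63.7% lay under peaks. The block took in HOXD13 and ended at positions 176099386 and 176099701 of chromosome 2, before the HOXD12 start in both libraries. Beyond it the HOXD12 interval was free, and a last common stretch before HOXD11, chr2:176105714-176106412, had a fold of 3.78 and 3.65. Inside HOXD13 the common stretches lay on both sides of the promoter printed above, with the nearest edges at 176092067 and 176093432.

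Of the 8 microRNA hairpins inside the clusters, only MIR196A2 lay under H3K27me3, over 100% of its length in both libraries. It stands between HOXC10 and HOXC9 at chr12:53991738-53991847. MIR196A1, which yields the same mature miR-196a-5p from between HOXB9 and HOXB13, had a cover of 0% in both, and so had MIR196B and MIR10A. No hairpin was touched by H3K9me3, FOXA1 or FOSL2 peaks in any list.

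FOXA1 peaks in WT cells lay at HOXA, HOXB and HOXC and almost not at HOXD. Inside the clusters and within 50 kb of them library 1 had 35 peaks and library 2 had 66. HOXA had 10 and 15, HOXB 19 and 32, HOXC 4 and 19, and HOXD 2 and 0. The excess of library 2 was largest at HOXC, where 16 regions were called in that library alone. Per 10000 peaks of the list, the totals were 7.08 and 8.22.

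**Figure D4:**
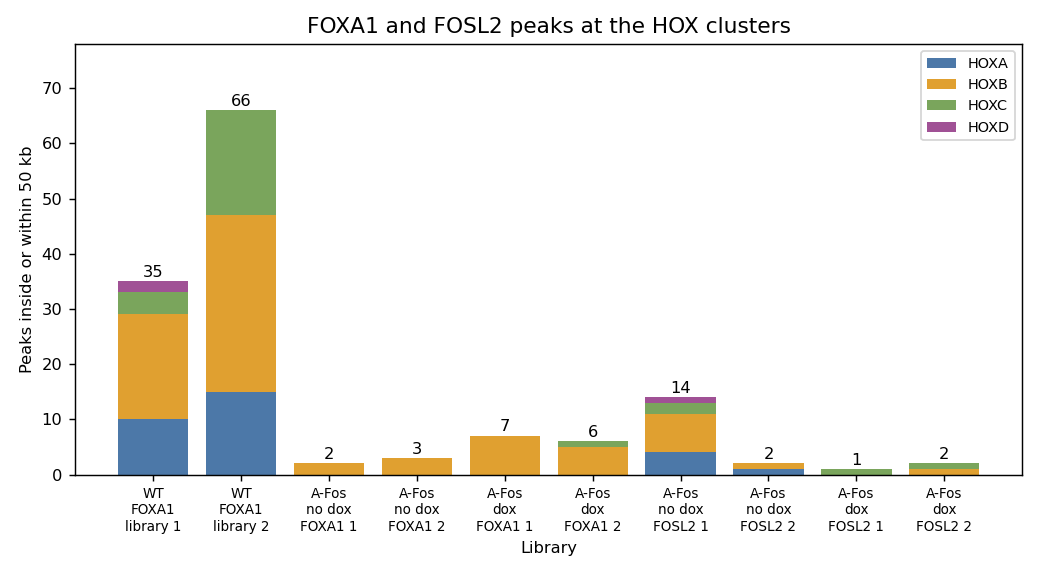
Number of FOXA1 and FOSL2 peaks inside the 4 HOX clusters or within 50 kb of them (vertical axis) in each library (horizontal axis), with bar segments for the clusters and the total above each bar; dox is doxycycline. The WT FOXA1 libraries have 35 and 66 peaks and every A-Fos library has 14 or fewer, from lists of very different length.

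Peaks of both WT libraries merged into 27 regions called in both, 9 at HOXA, 15 at HOXB, 3 at HOXC and none at HOXD, and 16 of the 27 lay inside a cluster. They fell in 8 HOX intervals, HOXA3, HOXB3, HOXB6, HOXB7, HOXC4, HOXC5, HOXC6 and HOXC9, against 34.3% of all protein-coding genes. HOXC4 to HOXC6 share their regions. Of the 27, 4 had their centre within 1 kb of the 5′ end of a listed gene, those of HOXC9, HOXC4 with HOXC5 and HOXC6, HOXB6 and HOXB7. Counted against either end of any protein-coding interval the number was also 4, or 14.8%, against 6.11% of all 35739 WT FOXA1 regions called in both libraries. HOX intervals are short and lie close together, so these shares are not like for like. The enrichment was higher in library 2 at 25 of the 27.

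Ranked by mean fold percentile in the WT lists, the first 2 regions were those beyond HOXB1 described below, followed by the 3 regions of HOXC. The highest of the 3, chr12:53999715-54000378 over the 5′ end of HOXC9, had a fold of 11.5 and 34.0. The second, chr12:54021583-54022048 within HOXC4 to HOXC6, had 14.1 and 18.7. The third, chr12:54016474-54017093, covered the printed promoter of HOXC4 and HOXC5 with a fold of 12.6 and 21.4, and its forkhead match lay under the peaks of both WT libraries. Neither A-Fos condition gave a FOXA1 peak in any of the 3.

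At HOXA all 7 regions inside the cluster lay in HOXA3. By mean percentile the first was chr7:27115052-27115704, with a fold of 13.1 and 18.7, followed by chr7:27112348-27112801 with 9.52 and 9.51 and chr7:27138023-27138426 with 5.92 and 9.52. By mean fold 2 other regions, chr7:27135632-27136685 with a mean of 8.63 and chr7:27110634-27111680 with 7.78, came before the last of these, at 7.72. At HOXB, 8 of the 15 regions lay in the 50 kb beyond HOXB1, where no protein-coding interval overlapped the ones named here. The region chr17:48521977-48523059, 5.47 kb from HOXB1, had the highest fold at any cluster, 22.8 and 98.6. The region chr17:48505535-48506245, 22.3 kb from HOXB1, had 20.9 and 41.8. Lower folds were found at chr17:48517453-48518007, with 10.3 and 15.3, at chr17:48516283-48516807, with 7.02 and 11.4, and at chr17:48483849-48484256, with 5.69 and 9.04.

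FOXA1 regions at the HOX clusters met H3K27me3 at a share near that of all FOXA1 regions. Of the 27 regions 2, or 7.41%, overlapped an H3K27me3 peak in either library, both in the flanks of HOXB, and none overlapped H3K9me3. Over the whole genome 6.18% of 35739 regions overlapped H3K27me3 and 5.01% overlapped H3K9me3. The free stretches described above held the FOXA1 regions of HOXA3, HOXB3, HOXB6, HOXB7 and of HOXC4 to HOXC6, but the HOXC9 region lay among H3K27me3 peaks and touched none.

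Forkhead and AP-1 motifs were counted in the promoter windows on both strands, with overlapping matches allowed. TGTTTAC occurred in 3.85% of the 26 HOX windows and in 3.42% of 34789 promoter windows of the same length, and TATTTAC in 7.69% and 2.68%. The AP-1 motif TGANTCA was in none of the 26 and in 7.69% of all. With 26 windows, 1 match is 3.85%. The windows with TATTTAC, those of HOXA2 and HOXD1, lay under no FOXA1 peak in any list. A HOXA3 window, chr7:27122323-27122622, held neither forkhead motif, yet a FOXA1 peak of WT library 2 covered 84.0% of it. A link between motif and peak was not tested. Most of the windows came from HOXA and HOXD, and HOXA3 and HOXA10 gave more than 1 each. The HOX windows held a median of 22.5 CpG dinucleotides, against 14.0, at a similar GC content of 58.0% and 58.7%. No HOX window was touched by a peak of either factor in the A-Fos line, but windows existed for only 20 of the 38 HOX genes. At HOXB only HOXB1 had a window, and at HOXC only HOXC4 with HOXC5. The 5′ end of HOXB6, without a window, lay under FOXA1 peaks of both libraries with doxycycline. That of HOXC10, also without a window, lay under a FOSL2 peak of library 1 without doxycycline.

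In the A-Fos line the question was whether blocking AP-1 changed binding. FOXA1 peaks at the HOX clusters numbered 2 and 3 without doxycycline and 7 and 6 with it. The groups did not overlap. The means were 2.5 ± 0.707 and 6.5 ± 0.707 (SD, n = 2 each), a difference of 4 peaks, with p = 0.33 by the exact permutation test (two-sided), the smallest possible. Between same-numbered libraries, which are not known to be pairs, the lists with doxycycline were longer, but list lengths overlapped between the conditions. The counts per 10000 peaks were 2.62 and 2.26 without doxycycline and 6.30 and 3.98 with it. With all 4 lists shortened to the same number of peaks by fold, the counts were 2 and 2 without and 5 and 4 with doxycycline, a difference of 2.5.

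These peaks formed 8 regions, 7 of them at HOXB and 1 in the flank of HOXC. Of these, 2 were kept, called in all 4 libraries, against 11.5% of 27825 FOXA1 regions of the A-Fos line genome-wide. Another 2 were gained, called in both libraries with doxycycline and in neither without, against 4.60%. None was lost, the opposite case, against 6.73%. The other 4 were called in other combinations. All 7 at HOXB were among the regions called in both WT libraries.

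Both kept regions lay beyond HOXB1 and were the most enriched there in WT cells. The region at chr17:48521977-48523059 had a fold of 7.35 and 6.70 without doxycycline and 9.83 and 6.76 with it, and the conditions overlapped. The region at chr17:48505535-48506245 had 8.16 and 8.07 without and 5.20 and 5.86 with doxycycline, lower in both. Folds come from lists of different length and were not tested between conditions.

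The gained regions lay inside the cluster. One, chr17:48587513-48588048 in HOXB3, 2.46 kb from its 5′ end, had a fold of 6.55 and 6.13 with doxycycline and of 6.26 and 13.3 in WT cells. The other, chr17:48603785-48605629 at the 5′ end of HOXB6, had 3.64 and 4.55 with doxycycline and 11.7 and 23.9 in WT cells. The HOXB6 region ranked 6 of 27 by mean percentile in the WT lists and 14 by the mean over every list that called it, which also counts its lower percentiles in the A-Fos line. It fell outside the 12 regions highest by the latter and is named because there were only 2 gained regions. By gene, FOXA1 regions of both libraries lay in none of the 38 HOX intervals without doxycycline, against 9.46% of all genes, and in HOXB3 and HOXB6 with it, against 9.95%.

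**Figure D5:**
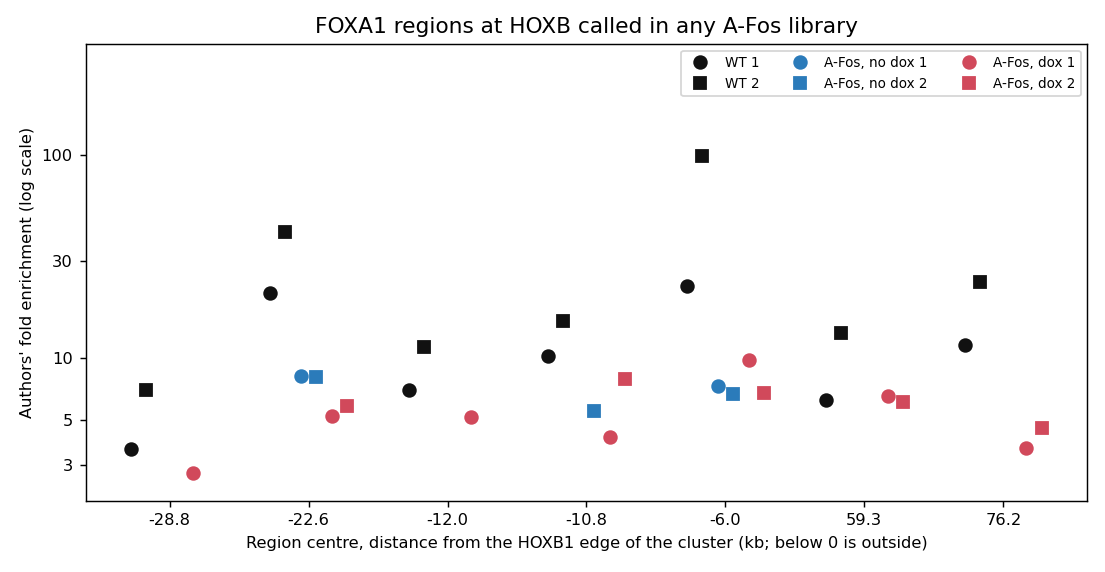
Authors' fold enrichment (vertical log axis) of the 7 FOXA1 regions at HOXB called in any A-Fos library, by the distance of their centre from the HOXB1 edge of the cluster in kb (horizontal axis, regions in order and not to scale). Black is WT, blue A-Fos without and red A-Fos with doxycycline (dox), circles and squares are libraries 1 and 2, and a missing point is a library without a call; the 2 regions inside the cluster, at 59.3 and 76.2 kb, have red and black points and no blue ones.

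FOSL2 peaks at the HOX clusters were few, and the direction of their change with doxycycline depended on the scale. Without doxycycline library 1 had 14 peaks and library 2 had 2, and with doxycycline the libraries had 1 and 2. The groups overlapped, at 8.0 ± 8.49 against 1.5 ± 0.707 (SD, n = 2 each), and the difference of -6.5 peaks gave p = 0.667 by the exact permutation test (two-sided). Without library 1 of the untreated cells the difference was -0.5, so that library decided its size. In lists of equal length the difference was also -0.5. Per 10000 peaks of the list the direction turned, with 3.07 and 1.35 without doxycycline and 5.39 and 3.79 with it, a difference of 2.38 and groups that did not overlap (exact permutation p = 0.33, two-sided, the smallest possible). Inside the clusters alone there were 5 and 1 peaks without and none with doxycycline. The 3 regions called with doxycycline lay in the flanks of HOXB and HOXC, each in 1 library. None of them overlapped a FOSL2 region called without doxycycline, and all 3 overlapped an H3K27me3 peak of at least 1 WT library. The peak of library 1 had a fold of 4.47, at percentile 95.6 of its list. Those of library 2 had 2.48, at percentile 0.664, and 3.36, at percentile 37.2. The values per 10000 peaks with doxycycline rest on these few calls.

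Of 17 FOSL2 regions, 12 were called in library 1 without doxycycline alone, and 2 were lost with doxycycline, against 17.8% of 56430 regions genome-wide. None was kept, against 0.0177%, and none was gained, against 0.0443%. One lost region, chr17:48505732-48506363, overlapped the kept FOXA1 region 22.3 kb from HOXB1. Its FOSL2 fold was 72.4 and 19.5 without doxycycline, and no FOSL2 peak was called there with it, while FOXA1 was called in all 4 libraries. The other, chr7:27111196-27111618 in HOXA3, had 11.0 and 5.12 and lay in a WT FOXA1 region that was not called in the A-Fos line. HOXA3 was the only HOX interval with a FOSL2 region of both untreated libraries, against 15.0% of all genes. Of the 27 WT FOXA1 regions, 4 overlapped a FOSL2 peak of either untreated library, 2 at HOXA and 2 at HOXB. That is 14.8%, against 33.5% of all 35739 WT FOXA1 regions.

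Other homeobox genes and the regulators of HOX genes give the setting for these values. Of 6 ParaHox and caudal genes, the evolutionary sisters of the HOX clusters, 2 were covered by H3K27me3 and the other 4 were touched in both libraries. GSX2 had 65.7% and 87.9% and GSX1 50.3% and 74.8%, and the median of the mean cover over the list was 28.4%, against 0% for the HOX genes. Of 29 other homeobox regulators 7 were covered, 7 touched in both, 3 in 1 and 12 free, with a median of 5.18%. DLX5, a regulator of bone and forebrain, had 91.7% and 93.2%, and NKX2-2, a neural and pancreatic regulator, had 87.3% and 91.0%, both above every HOX gene.

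Of 9 HOX partners, the PBX, MEIS and PKNOX proteins that bind DNA with HOX factors, PKNOX2 was covered, at 50.1% and 60.6%, and 4 were free. Among genes of the Polycomb complexes themselves, 10 of 12 PRC2 genes and 12 of 18 PRC1 genes were free and none was covered, where 63.6% of all genes were free and 5.04% covered. BMI1, a PRC1 subunit, had the most, 27.4% and 30.3%. All 11 trithorax and H3K27 demethylase genes were free. Of 13 genes of the retinoic acid pathway, which switches on HOX genes in the embryo, 3 were covered, among them CRABP1, a retinoic acid binding protein, at 96.5% and 96.6%. H3K9me3 covered no gene of these lists.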

How the data were processed

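The 17 samples were grouped and numbered by their titles, which call the libraries biological replicates. The 14 peak lists were analysed and the 3 inputs were not. Per the submitters' processing notes, reads passed through software that included fastp 0.23.2, BWA 2.2.1, SAMtools 1.8, MACS2, deepTools and DRAGEN, on build hg38. Order and settings: not given in the sources used here. Each deposited list holds the peaks of 1 library, with a fold enrichment (ratio) and the −log10 of p and q (p-value and q-value) from the authors' peak caller. The smallest −log10 q was about 1.30, a q of 0.05. Folds were used only to rank or describe peaks within a list.

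Within each list, peaks of the autosomes and X were merged and intersected with gene intervals of RefSeq GRCh38.p14, from the lowest to the highest annotated base of a gene; exons and introns were not distinguished. Peaks overlapping by at least 1 bp formed regions. The work used Python 3.11.15, numpy 2.4.6, pandas 2.3.3 and matplotlib 3.10.9, and the interval and permutation functions were tested on simulated data. The genes and lists were chosen with earlier results of these data known. All listed HOX genes were named, at most 4 genes of any other list (the most and least covered), and the 12 FOXA1 regions called in at least 2 lists with the highest mean percentile of fold over every list that called them; the HOXB6 region, 2 further HOXA3 regions and SFTPB were added after their values were seen. No read counts were available, so no count-based precision can be given. The labels do not say that same-numbered libraries were made together, so libraries were not paired.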

Additional observations from a re-analysis of the deposited data

How the results depend on the processing

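The direction of the FOSL2 difference reversed when counts were taken per 10000 peaks of the list, a scale added after seeing the data, from -6.5 peaks to 2.38 per 10000; the lists with doxycycline were the shorter ones. On that scale the FOXA1 difference kept its direction, at 2.70. The direction of the 3 differences tested held under the other alternatives that could change it. These were other windows, the upper part of each list by fold, q of 0.01 or less (factors), lists of equal length, joined peaks (marks) and each library left out. No alternative could pass a threshold of 0.05. The difference in cluster cover ran from 4.94 to 11.2 percentage points, and from 5.98 to 8.64 with 1 library left out. The FOXA1 difference ran from 3.5 to 4.5 peaks with 1 library left out and from 2 to 6.5 peaks under the other settings. The FOSL2 difference ran from -12.5 to -0.5 with 1 library left out and was -0.5 in lists of equal length. A replicate block cannot change a difference of means, so the differences stayed at 7.31, 4 and -6.5 by construction. Only the p-value can differ, with exact sign-flip p = 0.5, 0.5 and 1 from 2 pairs, whose smallest value is 0.5. Deviations of same-numbered libraries correlated at 0.514 for FOXA1 (3205 regions called in all 4 lists), -0.0891 for FOSL2 (10 regions) and -0.113 for the marks (3398 genes). Crossing the numbers of the marks was chosen after seeing the data. It also leaves the difference at 7.31 by construction and so is no check of it.

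HOX genes called covered by H3K27me3 numbered 4 at 25% of the interval (HOXD13, HOXD1, HOXC12 and HOXC10), 0 at 90%, 0 by the 1 kb either side of the gene ends, and 1 to 2 with 1 library left out; other settings gave 1, HOXD13. For H3K9me3 every setting gave 0. The WT FOXA1 regions numbered 16 inside the clusters alone and 14 in the upper part of the lists, ran from 35 to 66 with 1 library left out, and otherwise from 19 to 36. Depth is unknown, so differences in list length limit all comparisons between libraries.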
